A study of Mus musculus with 4 samples.

Results

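Replacement histone variants and linker histones were followed as 10 genes across 4 mouse whole-genome arrays. Members were taken by symbol alone, with every probe of each gene. They were the H2A variants H2afx, H2afz, H2afv and H2afy, the H3.3 genes H3f3a and H3f3b, and the linker histone genes H1f0, Hist1h1a, Hist1h1c and Hist1h1e. The members had 14 of the 45281 probes on the array. Genes entered the analysis if any array detected one of their probes, at a p-value below 0.01, which was true of 8 of the 10 members and of 12616 genes in all.

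The arrays held total RNA of mouse embryonic fibroblasts (MEFs) of mixed FVB and 129 strain that carried a floxed Rb gene. 1 array was run for each of 4 conditions. Parental MEFs received 2 mock treatments of 1 hr, 3 hr apart, with a solution that lacked TAT-Cre and with medium in place of retrovirus, and kept Rb. Rb-deleted MEFs received TAT-Cre, a recombinase that enters cells, and medium alone. WT Rb-HA MEFs received TAT-Cre and a retrovirus for wild-type Rb, and ΔCdk Rb-HA MEFs received TAT-Cre and a retrovirus for a phospho-mutant Rb that Cdks cannot phosphorylate. From the study's text, and not from the labels, all cells had been released from contact inhibition and then given doxorubicin, which breaks DNA, at 100 ng/ml over 3 hr. Parental MEFs therefore lacked both TAT-Cre and retrovirus, and Rb-deleted MEFs lacked retrovirus. With 1 array per condition, no difference has a replicate check and no p-value was computed. The errors given are standard errors over the beads of a probe, which cover the measurement within an array only. All 3 ratios to parental share the parental array. Intensities are given as deposited and ratios after normalization, so arrays that lie close together can stand in another order in the ratios.

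DNA in chromatin winds around octamers of the core histones H2A, H2B, H3 and H4, and linker histone H1 binds where the DNA enters and leaves. Most core and linker histones come from clustered genes that are transcribed in S phase, when new DNA is packaged, and whose mRNAs end in a stem-loop in place of a poly(A) tail. Replacement variants come from genes that mostly give polyadenylated mRNAs, and they enter chromatin outside S phase as well. H2afx is mixed in this respect, since it gives a stem-loop mRNA and a polyadenylated one. H2A.X is phosphorylated around DNA breaks, H2A.Z and H3.3 mark promoters and regions of exchange, and macroH2A carries a large extra domain. Rb restrains E2F factors, which drive genes needed for S phase.

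Between 15950 and 16740 probes were detected per array, and mean intensity lay between 336 and 346. At transcript position 4421, parental MEFs had an Rb1 intensity of 543, and it was 160.5 after Rb deletion alone, 181 with WT Rb-HA and 170.1 with ΔCdk Rb-HA. At position 4002 the Rb1 intensity was 108 in parental and 56.7 in Rb-deleted cells. That probe was not detected with WT Rb-HA, at 51.1, or with ΔCdk Rb-HA, at 52.9. Whether the Rb1 probes lie in the deleted part, or in the retroviral Rb, was not tested, so these values do not give the level of retroviral Rb. All 14 fibroblast markers were detected, with a summed intensity of 94216 to 106983, beside 5 of 7 epithelial, 1 of 6 endothelial and 3 of 6 muscle markers. Of 14 leukocyte markers 11 were detected, with a sum of 4940 on the parental array and 1865 to 2178 on the other 3, while Ptprc, Fcer1g and Itgam were detected on no array. Leukocyte markers lower than parental past 1.6-fold numbered 8 with Rb deleted, 9 with WT Rb-HA and 10 with ΔCdk Rb-HA, and the part of this difference in the members' ratios to parental was not tested. Fewer cells of a type and less RNA per cell cannot be told apart in such samples.

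The members were counted past 1.6-fold, the filter of the study, which is 0.68 on the log2 scale. With 8 members, a count of 0 or 1 cannot be told apart from the share of all genes. In Rb-deleted compared to parental cells, 0 of the 8 members passed, with 5.12% of all genes past it in either direction. In WT Rb-HA compared to parental cells, 0 of 8 passed, with 3.34% of all genes past it. In ΔCdk Rb-HA compared to parental cells, 1 of 8 passed, H2afz, with 5.87% of all genes past it. The median log2 ratio of the 8 members was 0.14, 0.12 and 0.15 in these comparisons, beside medians over all genes of 0.017, 0.0095 and -0.0063. With no detection filter the first became 0.0155, and with arrays scaled to the same 75th percentile the second became 0.061 and the third 0.095. Among the 3 TAT-Cre arrays, 0 of 8 members passed between WT Rb-HA and Rb-deleted cells, with 1.02% of all genes past it. Between ΔCdk Rb-HA and Rb-deleted cells 1 of 8 passed, Hist1h1c, with 4.26% of all genes past it. From WT Rb-HA to ΔCdk Rb-HA cells 0 of 8 passed, with 1.85% of all genes past it. These counts use the brightest probe of each gene, and 1 dimmer probe, of H2afv, passed 1.6-fold where the brighter one did not.

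**Figure D1:**
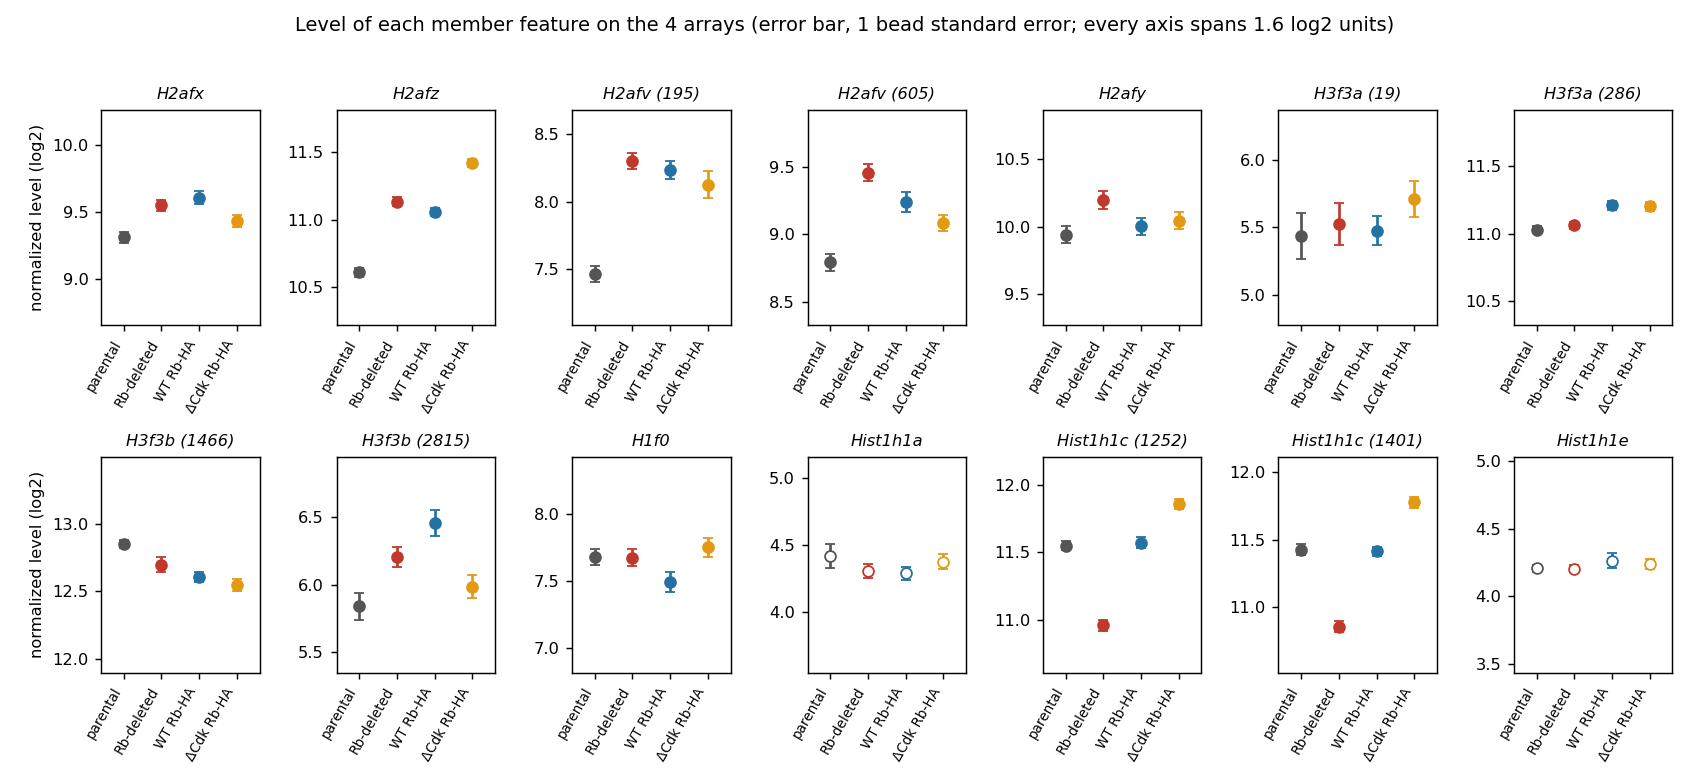
Normalized level (log2, vertical axis) of each of the 14 member probes on the 4 arrays, with the transcript position in parentheses where a gene has more than 1 probe. Points are single arrays, bars are 1 bead standard error, and open points were not detected. Both Hist1h1c probes were lowest in Rb-deleted cells and highest in ΔCdk Rb-HA cells, and H2afz and both H2afv probes were lowest in parental cells.

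By the brightest probe, the H2A.Z genes were the replacement variants furthest from parental in Rb-deleted and in WT Rb-HA cells, and H2afz was in ΔCdk Rb-HA cells, where H3f3b at -0.30 was slightly further than H2afv at 0.29. H2afz (chromosome 3) encodes H2A.Z.1 and H2afv (chromosome 11) the closely related H2A.Z.2, and both proteins replace H2A next to promoters. Their coding-sequence probes, and that of H3f3a, are shown because members of these families are much alike and the ratio of a probe rests on its 50 bases. For H2afv this is the dimmer probe, and the brighter one, at position 605, stood for the gene in counts and medians. The bases are printed 5′ to 3′ as deposited.
H2afz, position 109: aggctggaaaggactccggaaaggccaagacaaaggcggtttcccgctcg
H2afv, position 195: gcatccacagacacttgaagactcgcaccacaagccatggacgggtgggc
H3f3a, position 286: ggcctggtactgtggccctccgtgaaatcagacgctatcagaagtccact
No probe of another gene on the array shared a run of 20 bases with any member probe, on either strand. Copies elsewhere in the genome were not searched.

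H2afz had an intensity of 1648 ± 41.9 (bead standard error) in parental cells, 2247 ± 51.4 in Rb-deleted cells, 2158 ± 41.5 in WT Rb-HA cells and 2714 ± 63.6 in ΔCdk Rb-HA cells. The parental array was lowest and the ΔCdk Rb-HA array highest, each by more than 2 bead standard errors, while Rb-deleted and WT Rb-HA cells differed by less than that. Ratios of H2afz over parental, as log2, stood at 0.52 in Rb-deleted cells (bead standard error 0.047), 0.45 in WT Rb-HA cells (0.044) and 0.81 in ΔCdk Rb-HA cells (0.044). Of all genes, 1.25% lay at least as high as H2afz in ΔCdk Rb-HA cells, and 5.04% and 5.14% did in Rb-deleted and WT Rb-HA cells. ΔCdk Rb-HA cells exceeded WT Rb-HA cells by 0.36 (0.042) and Rb-deleted cells by 0.29 (0.046). A second locus that the array describes as similar to H2A.Z, LOC675899, was likewise lowest in parental cells, with log2 ratios of 0.38, 0.19 and 0.39 (bead standard errors 0.055, 0.051 and 0.049). Transcripts of H2A.Z copies can be near-identical, so the values of H2afz and LOC675899 are uncertain as values of 1 gene each.

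H2afv was read by 2 probes, both lowest in parental cells and highest in Rb-deleted cells. At position 605 its intensity was 481 in parental, 727 in Rb-deleted, 628 in WT Rb-HA and 548 in ΔCdk Rb-HA cells. At position 195 the same arrays gave 205, 339, 323 and 296. All 3 TAT-Cre arrays lay above parental at both positions by more than 2 bead standard errors. The log2 ratio at position 605, the brighter probe, was 0.67 in Rb-deleted cells (0.087), just short of the 1.6-fold limit, 0.45 in WT Rb-HA cells (0.097) and 0.29 in ΔCdk Rb-HA cells (0.087). At position 195 it was 0.84 (0.083), 0.77 (0.087) and 0.66 (0.12), so that Rb-deleted and WT Rb-HA cells passed 1.6-fold there. From Rb-deleted to ΔCdk Rb-HA cells the log2 difference was -0.37 (0.085) at position 605 and -0.18 (0.12) at position 195. ΔCdk Rb-HA cells thus held the highest H2afz level and, of the TAT-Cre arrays, the lowest H2afv level by both probes, although for H2afv the step to WT Rb-HA cells was within 2 bead standard errors.

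**Figure D2:**
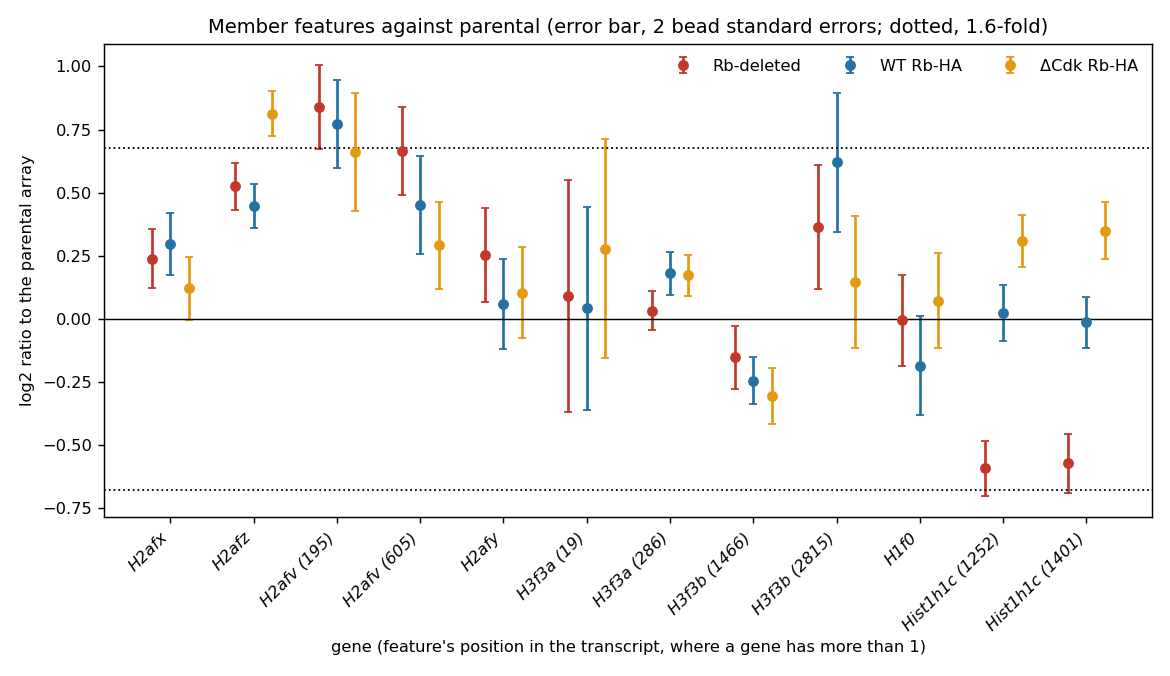
Log2 ratio to the parental array (vertical axis) of the 12 member probes detected on all 4 arrays, for Rb-deleted (red), WT Rb-HA (blue) and ΔCdk Rb-HA cells (orange). Bars are 2 bead standard errors and dotted lines mark 1.6-fold. Past the lines lay H2afz in ΔCdk Rb-HA cells, at 0.81, and the H2afv probe at position 195 in Rb-deleted and WT Rb-HA cells, at 0.84 and 0.77.

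H2afx (chromosome 9) encodes H2A.X, whose phosphorylated form marks the breaks that doxorubicin causes. Its intensity was 679.8 in parental, 774 in Rb-deleted, 799 in WT Rb-HA and 693 in ΔCdk Rb-HA cells. Ordered by level, from parental through ΔCdk Rb-HA and Rb-deleted to WT Rb-HA cells, no step between neighbors exceeded 2 bead standard errors. Rb-deleted and WT Rb-HA cells each lay above parental by more than that, at 0.24 (0.058) and 0.30 (0.062) on the log2 scale. In ΔCdk Rb-HA cells the log2 ratio was 0.12 (0.062). Labeling primed on poly(A) tails, and how much of the stem-loop mRNA of H2afx its probe reads was not tested. Of 18 genes for the kinases, adaptors and phosphatases that write, read or erase H2A.X phosphorylation, 11 were analysed. None passed 1.6-fold on any TAT-Cre array compared to parental, where 5.12%, 3.34% and 5.87% of all genes did. Their median log2 ratios were 0.30, 0.050 and 0.093, and their ratios spanned -0.54 to 0.57.

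H2afy (chromosome 13), the gene of macroH2A1, had intensities of 1054 in parental, 1189 in Rb-deleted, 1036 in WT Rb-HA and 1049 in ΔCdk Rb-HA cells. The Rb-deleted array was highest, with a log2 ratio to parental of 0.26 (0.093). The other arrays lay within 2 bead standard errors of parental, at 0.061 (0.089) and 0.10 (0.090). Of all genes, 71.8% had at least as wide a range over the 4 arrays as H2afy.

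H3f3a (chromosome 1) and H3f3b (chromosome 11) encode the same H3.3 protein, which is placed at active genes and at repeats. At position 286, H3f3a had intensities of 2179.8 in parental, 2143 in Rb-deleted, 2392 in WT Rb-HA and 2359 in ΔCdk Rb-HA cells. Its log2 ratios to parental were 0.033 (0.039), 0.18 (0.043) and 0.17 (0.041), so that both arrays with retroviral Rb lay above the other two by small steps. H3f3a had the narrowest range of the detected members, 0.18 on the log2 scale, and 86.4% of all genes had at least as wide a range. Its other probe, at position 19, was dim, at 67.2 to 76.2, and no step in its order exceeded 2 bead standard errors.

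H3f3b was the only detected member below parental on all 3 TAT-Cre arrays by its brightest probe. At position 1466 its intensity was 7569 in parental, 6482 in Rb-deleted, 6274 in WT Rb-HA and 5989 in ΔCdk Rb-HA cells. The log2 ratios were -0.15 (0.062), -0.24 (0.046) and -0.30 (0.056), each beyond 2 bead standard errors. A dim probe at position 2815, designed on a predicted transcript, went the other way, with intensities of 81.6, 96.7, 113 and 87.2 and log2 ratios of 0.36 (0.12), 0.62 (0.14) and 0.15 (0.13). The probes disagree in direction, and which of them better reads H3f3b was not tested. H3.3 genes have near-identical copies in the genome, and of those the array names as similar to H3f3a, LOC668164 was detected at 89.2 to 103 and LOC626150 was not detected.

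H1f0 (chromosome 15) encodes H1.0, the linker histone of resting and differentiated cells, from a polyadenylated mRNA. Its intensity was 234 in parental, 228 in Rb-deleted, 204 in WT Rb-HA and 234 in ΔCdk Rb-HA cells. None of its log2 ratios to parental, -0.0048 (0.090), -0.18 (0.098) and 0.072 (0.094), exceeded 2 bead standard errors. The ΔCdk Rb-HA array exceeded the WT Rb-HA array by 0.26 (0.10).

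Hist1h1c (chromosome 13), the gene of linker histone H1.2, had the widest range of the members by the brightest probe, 0.90 on the log2 scale, and 4.51% of all genes had at least as wide a range. At position 1252 its intensity was 3121 ± 66.7 in parental, 1994 ± 49.8 in Rb-deleted, 3052 ± 79.2 in WT Rb-HA and 3710.4 ± 92.8 in ΔCdk Rb-HA cells. At position 1401 the same arrays gave 2872, 1869, 2742 and 3523. By both probes the Rb-deleted array was lowest and the ΔCdk Rb-HA array highest, each by more than 2 bead standard errors, and parental and WT Rb-HA cells did not differ beyond that.

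At position 1252 the log2 ratio of Hist1h1c over parental stood at -0.59 in Rb-deleted cells (0.054), 0.022 in WT Rb-HA cells (0.055) and 0.31 in ΔCdk Rb-HA cells (0.051). At position 1401 it was -0.57 (0.058), -0.013 (0.050) and 0.35 (0.057). Only 4.17% of all genes lay as low as the position 1252 probe in Rb-deleted cells. Compared to Rb-deleted cells, that probe was 0.61 (0.059) higher in WT Rb-HA cells and 0.90 (0.055) higher in ΔCdk Rb-HA cells, a 1.87-fold difference. Of all genes, 0.753% and 0.983% lay at least as high in these comparisons. From WT Rb-HA to ΔCdk Rb-HA cells the difference was 0.29 (0.056) at position 1252 and 0.36 (0.051) at position 1401.

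Both Hist1h1c probes start beyond the 725 bases of the gene in the RefSeq table of assembly GRCm38.p6, since the array was designed on an older and longer transcript record. By these positions the probes read a transcript longer than the RefSeq record, and samples were labeled with a kit that primes on poly(A) tails. The Hist1h1c values are therefore those of a longer transcript. Whether the stem-loop mRNA of Hist1h1c followed them was not tested. Hist1h1a and Hist1h1e, the chromosome 13 genes of H1.1 and H1.4, were detected on no array, with intensities of 38.6 to 43.0 and 32.9 to 37.7 and detection p-values of 0.24 to 0.60 and 0.72 to 0.95. Nor was any of the other clustered linker histone genes Hist1h1b, Hist1h1d and Hist1h1t detected. Hist1h1c was therefore the only clustered linker histone gene with a detected probe.

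Start-site windows show what Hist1h1c and Hist1h1e share. The sequence up to the base before the annotated start is given for the 3 clustered members and for H2afz, the variant furthest from parental in ΔCdk Rb-HA cells. It comes from RefSeq, assembly GRCm38.p6, on the strand of the gene, and capitals mark the H1 box AAACACA, the box CCAAT and the TATA box TATAAA on either strand.
Hist1h1c, chr13:23738685-23738806, plus strand: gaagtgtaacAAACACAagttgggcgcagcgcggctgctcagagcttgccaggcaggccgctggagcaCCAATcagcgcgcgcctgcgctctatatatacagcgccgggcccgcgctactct
Hist1h1e, chr13:23622559-23622683, minus strand: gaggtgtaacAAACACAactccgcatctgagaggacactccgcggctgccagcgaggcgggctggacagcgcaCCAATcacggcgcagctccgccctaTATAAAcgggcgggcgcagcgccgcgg
Hist1h1a, chr13:23763546-23763667, plus strand: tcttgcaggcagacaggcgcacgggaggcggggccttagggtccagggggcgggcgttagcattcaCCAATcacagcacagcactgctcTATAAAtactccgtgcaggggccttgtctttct
H2afz, chr3:137864365-137864486, plus strand: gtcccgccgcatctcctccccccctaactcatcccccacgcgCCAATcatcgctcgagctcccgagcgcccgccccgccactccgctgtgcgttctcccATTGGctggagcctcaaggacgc
Hist1h1c and Hist1h1e shared a run of 15 bases that holds the H1 box, gtgtaacaaacacaa. The H1 box began at base -112 in Hist1h1c and -115 in Hist1h1e, and their CCAAT boxes began at -54 and -52. Both windows thus hold the H1 box and the CCAAT box in the same order and at nearly the same distance.

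Of the 10 members 9 had a window of 300 bases, from 250 before to 50 after the start, and H2afx had none. AAACACA was present in 3 of the 9 windows and in 7.18% of all 32851 windows, on either strand. The members with it were Hist1h1c, Hist1h1e and, on the other strand at -181, H3f3a, while the window of Hist1h1a did not hold it. CCAAT was present in 7 of 9 and in 37.4% of all windows, and TATAAA in 3 of 9 and in 13.6%. The CHR element TTTGAA was present in 1 of 9, that of H2afv, and in 17.9% of all windows. The E2F words TTTCCCGC, TTTGGCGC, TTTCGCGC and TTTGCCGC were in none of the 9 windows and in 2.26% of all. No match overlapped a match of another motif, and the windows of H2afy and H1f0 held none of these words.

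**Figure D3:**
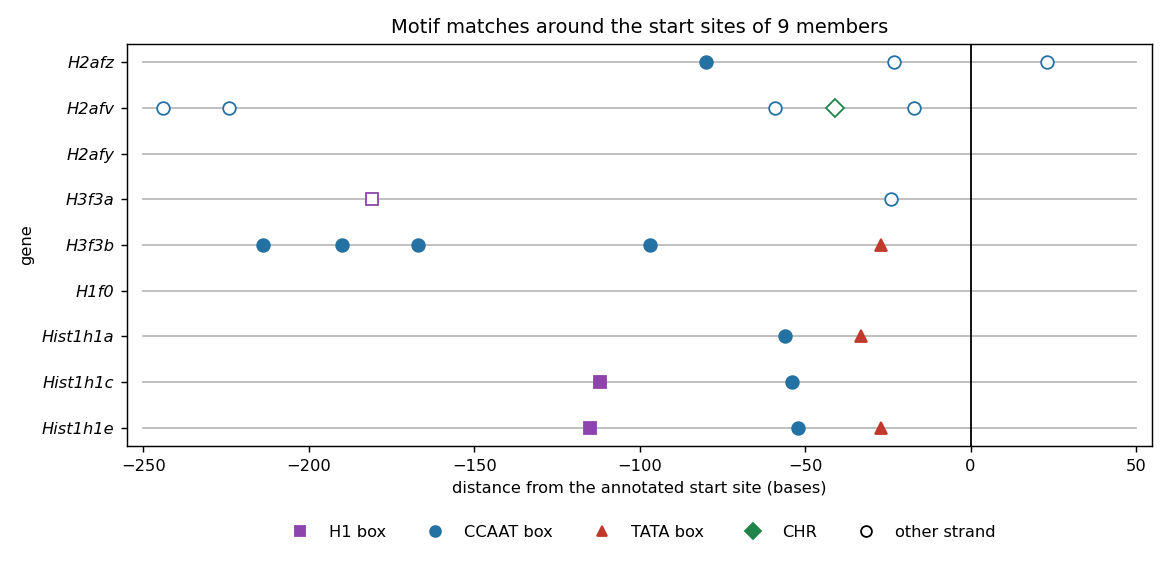
Matches to the searched motifs (symbols) by distance from the annotated start site in bases (horizontal axis) for the 9 members with a window, 1 line per gene. Filled symbols lie on the strand of the gene and open symbols on the other. Hist1h1c and Hist1h1e each hold an H1 box, at -112 and -115, followed by a CCAAT box at -54 and -52.

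The clustered core histones are the S-phase counterparts of the replacement variants, and 40 of 53 were detected. The 6 replacement variants stood at a median of 0.25 on the log2 scale in Rb-deleted cells compared to parental. The clustered families split there, with medians of 0.78 for 15 H2A genes, -0.77 for 10 H2B genes, -0.20 for 7 H3 genes and -0.49 for 8 H4 genes. Hist1h1c, at -0.59, was on the side of H2B, H3 and H4, every detected gene of which lay below parental. All 4 H2A variants lay above parental, as 11 of the 15 clustered H2A genes did. Of the H3.3 genes, H3f3a lay at 0.033, within its bead standard error. H3f3b lay at -0.15 by its brightest probe and at 0.36 by its dim one. In WT Rb-HA cells the families had medians of 0.59, 0.37, 0.25 and 0.64, beside 0.24 for the replacement variants. In ΔCdk Rb-HA cells the medians were 0.72, 0.74, 0.67 and 1.26, beside 0.15 for the replacement variants. Past 1.6-fold there were 25 of the 40 clustered genes and 1 of 6 replacement variants, with 5.87% of all genes. In Rb-deleted cells the counts were 17 of 40 and 0 of 6, with 5.12% of all genes. In WT Rb-HA cells they were 8 of 40 and 0 of 6, with 3.34% of all genes. The same labeling limit applies to the clustered core genes, and many of them share sequence, so their counts are uncertain as counts of separate genes.

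**Figure D4:**
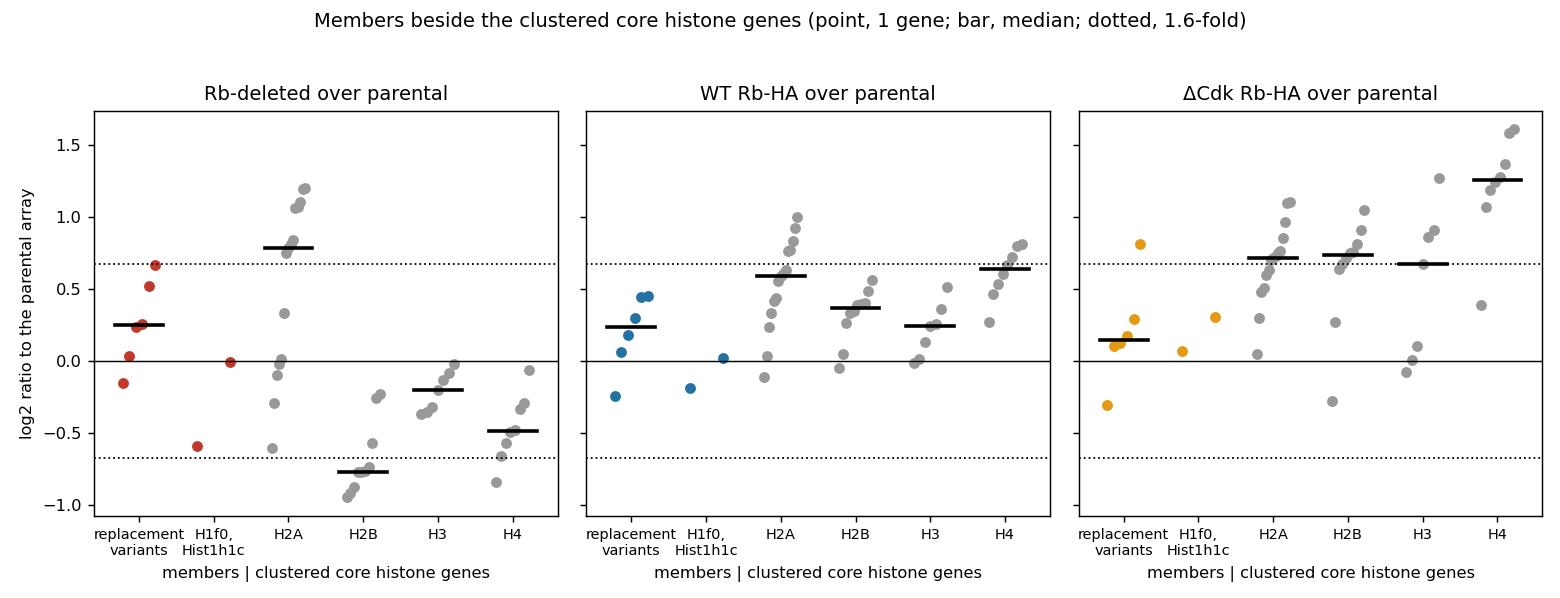
Log2 ratio to parental (vertical axis) of the 6 replacement variants and the 2 detected linker histone genes (colored) and of the 40 clustered core histone genes (gray), in 1 panel per TAT-Cre array. Points are genes, bars are medians, and dotted lines mark 1.6-fold. In Rb-deleted cells clustered H2B lay at a median of -0.77 with Hist1h1c at -0.59, and in ΔCdk Rb-HA cells clustered H4 lay at a median of 1.26 with the replacement variants at 0.15.

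Other replication-independent variants were few at a measurable level. Of 8 on the array 4 were analysed, and their median log2 ratios to parental were 0.50, 0.39 and 0.33. With 5.12% of all genes past 1.6-fold in Rb-deleted cells, 1 variant passed, H2afy2, the gene of macroH2A2, at an intensity of 56.3. In parental cells it was not detected, at 40.7, and the lower bound on the fold was 1.00, which gives no direction.

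Chaperones and exchange factors place these histones in chromatin, and some of them differed between arrays by more than any member. Of 27 analysed, 4 passed 1.6-fold in Rb-deleted, 2 in WT Rb-HA and 6 in ΔCdk Rb-HA cells compared to parental. Of all genes, 5.12%, 3.34% and 5.87% passed in these comparisons. The list had medians of 0.31, 0.11 and 0.073, beside 0.017, 0.0095 and -0.0063 over all genes. Chaf1b and Chaf1a, subunits of CAF-1, which deposits newly made H3 and H4 at replication, had log2 ratios of 2.01 (0.11) and 1.48 (0.082) in Rb-deleted cells, 0.78 (0.11) and 0.63 (0.10) in WT Rb-HA cells, and 1.50 (0.12) and 1.04 (0.084) in ΔCdk Rb-HA cells. Nasp, a chaperone of H3 and H4 that also binds H1, gave 1.29 (0.063), 0.77 (0.065) and 1.01 (0.073). These 3 genes were highest in Rb-deleted cells, the array where Hist1h1c was lowest. Chaf1b is also counted among the G1/S E2F targets below.

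Daxx, which loads H3.3 at repeats with Atrx, was lower than parental, at -0.34 (0.080), -0.54 (0.074) and -1.02 (0.10), and its intensity in ΔCdk Rb-HA cells was 192 against 387 in parental cells. Rbbp7, a histone-binding subunit of several chromatin complexes, reached 0.78 (0.058) in ΔCdk Rb-HA cells. Asf1b, a chaperone of H3 and H4, was dim, at 56.8 and not detected in parental cells and at 77.8 in ΔCdk Rb-HA cells, and its log2 ratio of 0.72 there had a bead standard error of 0.21.

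Genes for the processing and transcription of histone mRNAs formed another list. Of 11 analysed none passed 1.6-fold in any of the 3 comparisons with parental, where 5.12%, 3.34% and 5.87% of all genes did. Their medians were 0.21, -0.017 and 0.039, beside 0.017, 0.0095 and -0.0063 over all genes. G1/S E2F targets, genes driven by the E2F factors that Rb restrains, had medians of 1.24, 0.60 and 1.04 over 28 genes. Of these, 25, 11 and 23 were past 1.6-fold. Less restraint by Rb and entry toward S phase cannot be told apart in these values. G2/M genes had medians of 0.13, -0.11 and 0.31 over 13 genes, of which Birc5 and Cdc2a passed 1.6-fold, in ΔCdk Rb-HA cells alone, at 0.91 (0.050) and 0.76 (0.072). On each TAT-Cre array the ratio of H2afz lay between the medians of these 2 lists, and the part of cell cycle position in the values of the members was not tested.

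Patterns most like that of Hist1h1c were sought among 10837 genes detected on all 4 arrays, by the Euclidean distance of log2 levels centered on each gene's mean over these 4 arrays. The nearest 4 named genes were Tfpi at a distance of 0.053, G6pc3 at 0.065, Dnalc1 at 0.068 and 4930486L24Rik at 0.11. The fifth nearest was a feature without a gene symbol, at 0.12. Their log2 ratios to parental lay between -0.62 and -0.43 in Rb-deleted cells and between 0.24 and 0.41 in ΔCdk Rb-HA cells. None of these 5 is a histone gene by its name on the array.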

How the data were processed

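Whole-genome expression was measured on 4 arrays of the MouseWG-6 v2.0 BeadChip type, 1 array per condition. The labels gave each array's condition, and the array names share a number and differ only in the letters A to D. The authors deposited the bead-averaged intensity of every probe not normalized. Their table further holds, as deposited, a detection p-value for each probe, the bead standard error of the signal and the number of beads. An aligner or build does not apply, and the normalization used in the study is not given in the sources used here.

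Intensities were background-corrected in limma 3.58.1 (R 4.3.3) by normexp, using detection p-values and the offset 16, followed by quantile normalization and log2. The brightest probe stood for its gene in counts and medians. Bead standard errors were carried through each array's mapping and combined over both arrays of a ratio. They limit precision within an array, and the number of arrays limits it otherwise. For H2afy2, not detected on the parental array, a lower bound was given against the higher of its own value and the lowest detected value there. The calculation was tested on simulated data. Symbols were matched to RefSeq windows by Entrez number, which succeeded for 9 of 10 members. Other computations used Python 3.11.15.

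Members and lists were chosen with earlier results of these data known. List genes were named if past 1.6-fold on a TAT-Cre array, at most 6 per list, and G1/S targets and clustered core histones are given by counts and medians. Alternatives changed background, offset, scaling, detection filter, probe choice and threshold.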

Additional observations from a re-analysis of the deposited data

How the results depend on the processing

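No paired analysis was possible because each condition is 1 array, and no replicate could be left out. With no detection filter, which adds Hist1h1a and Hist1h1e at background, the median log2 ratio of the members became 0.0155 in Rb-deleted and 0.059 in WT Rb-HA cells compared to parental, and 0.051 in ΔCdk Rb-HA compared to Rb-deleted cells, where it had been -0.020. With arrays scaled to the same 75th percentile the WT Rb-HA median was 0.061. With the mean over the detected probes of a gene, 1 member, H2afv, passed 1.6-fold in Rb-deleted cells, and the median between WT Rb-HA and Rb-deleted cells became -0.0135 from -0.084. At a 2-fold threshold no member passed (0 for ΔCdk Rb-HA over parental and 0 over Rb-deleted cells), and the clustered core histones past it numbered 5, 1 and 11 compared to parental and 1 for ΔCdk Rb-HA over WT Rb-HA, where 5 had passed 1.6-fold. Without background correction, or with an offset of 50, that 5 became 3. Further medians moved by over 1.5 times. For ΔCdk Rb-HA over parental 0.15 became 0.095, and for ΔCdk Rb-HA over Rb-deleted -0.020 became -0.038, both with the 75th percentile. For WT Rb-HA over Rb-deleted -0.084 became -0.047 with no detection filter, and for ΔCdk Rb-HA over WT Rb-HA 0.017 became 0.078 with the mean over probes. The medians are thus not stable as values, and the remaining ones, and the remaining counts, stayed within 1.5 times. Of 216 ratios of single member probes recomputed under other backgrounds and scaling, 10 moved by more than their bead standard error and 3 turned sign, none of them above 0.061 in size. Dim probes (H3f3a at position 19, H3f3b at position 2815) limit what can be read, and without replicate arrays no difference can be set against the spread between cultures.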
